A study of Caenorhabditis elegans with 4 samples.

Results

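The left arm of chromosome V carried 913 of the 14662 LIN-61 peaks in the authors' list for the whole series. A peak was counted on the arm when its midpoint lay between positions 1 and 6974716 of V (WormBase WS220), the leftmost of 3 sections of equal length. The choice rested on position alone, with the sections running to the highest peak end found on V. No score, width or replicate overlap entered it. By the same rule the arm held 471 of the 9958 peaks of replicate 1 and 849 of the 13486 peaks of replicate 2. Both libraries come from wild-type N2 worms at the L3 larval stage, males and hermaphrodites together, grown at 20 degrees Celsius. Both were crosslinked with the chemical crosslinker EGS for 20 min and with EGS and formaldehyde for 10 min. Chromatin immunoprecipitation with sequencing (ChIP-seq) was done with an affinity-purified rabbit polyclonal antibody, HM4077, raised against residues 159 to 491 of LIN-61. The 2 input DNA libraries of the study were not analysed here, so the background of unenriched DNA is not known. The read depth of the peak lists is unknown, and the labels do not say whether the replicates came from separate cultures, so their spread may be technical.

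LIN-61 is a chromatin protein built of MBT repeats, folds that bind methylated histone tails. It belongs to the synMuv B group of genes, which keep vulval and other developmental genes repressed, and it can bind histone H3 methylated at lysine 9, a mark of heterochromatin. In C. elegans that mark and repeated DNA are concentrated on the chromosome arms, whereas the centres hold most of the broadly expressed genes. Chromosome V is known for its many chemoreceptor genes of the 7-transmembrane class, and its meiotic pairing centre lies at the right end, away from the left arm. Genes and repeats at the peaks were not analysed here, because no annotation of the WS220 build was at hand.

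The left arm of V was among the sparsest autosome arms for LIN-61. Peak density was 67.5 per Mb in replicate 1 and 121.7 per Mb in replicate 2, or 94.6 ± 38 (SD, n = 2), and 130.9 per Mb in the whole-series list. Among the 10 autosome arms it ranked 10th from the densest in replicate 1 and 9th in replicate 2 and in the whole-series list, beside the right arm of IV in each case (71.7, 114.7 and 127.6 per Mb there). The order of the left arm of V and the right arm of IV therefore turned with the list. The other 9 autosome arms had a median of 175.0 per Mb in replicate 1 and 225.7 in replicate 2. By bases inside peaks the left arm of V was the lowest of the 10 in all 3 lists, with 2.46% of the arm covered in replicate 1, 5.38% in replicate 2 and 6.63% in the whole-series list.

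**Figure D1:**
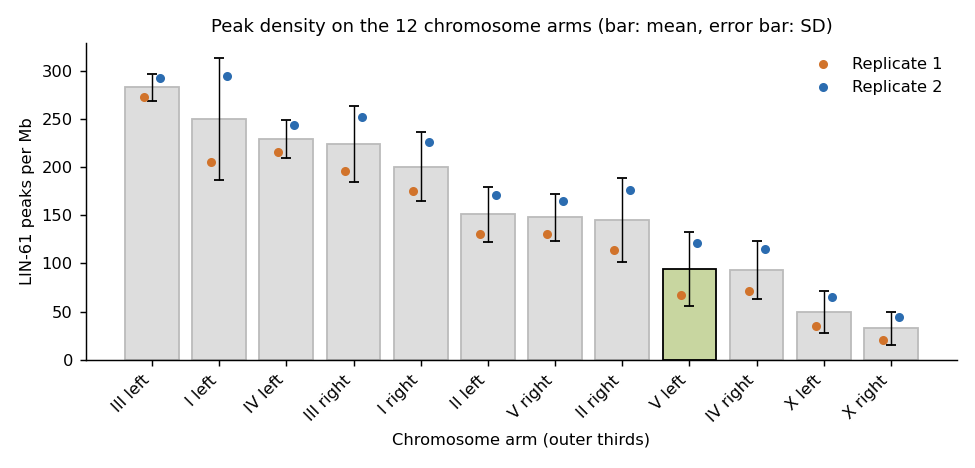
LIN-61 peaks per Mb (vertical axis) on the 12 chromosome arms, in order of the mean of the replicates. Bars show the mean, error bars the SD of 2 replicates, and points each replicate. The left arm of V (green, 67.5 and 121.7 per Mb) and the right arm of IV (71.7 and 114.7) lie below the other autosome arms and above the arms of X.

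Set against the rest of its own chromosome, the left arm lay between the right arm and the centre in both replicates. The right arm had 130.6 per Mb in replicate 1 and 164.9 in replicate 2, so the left arm carried 0.517 and 0.738 times its density. The centre had 30.1 and 54.1 per Mb, and the left arm exceeded it 2.24-fold and 2.25-fold. The difference to the right arm was -53.1 ± 14 peaks per Mb and that to the centre 52.5 ± 21 (SD, n = 2 replicates). The values of the left arm overlapped neither those of the right arm nor those of the centre. The exact two-sided permutation test over the replicate densities gave p = 0.333 for both contrasts, the smallest value that 2 against 2 allows, so neither could pass 0.05. Merging of peaks that lay less than 500 bp apart brought the difference to the right arm to -32.3 per Mb, and keeping the higher-scoring 50% of each list brought that to the centre to 25.2. Both settings lower the densities themselves: the left arm had 63.2 per Mb after merging and 40.2 in the higher-scoring 50%, against 94.6. The smaller differences therefore do not show contrasts that are weaker in proportion.

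The left arm lacked the broad maximum that the right arm showed away from its tip. Over the first 0.5 Mb from the tip the left arm had 98.0 and 136.0 peaks per Mb (replicates 1 and 2) and its counterpart 66.0 and 114.0. Between 0.5 and 3.5 Mb from the end the right arm had 237.3 and 257.7 per Mb, and the left arm 72.3 and 138.0. Between 3.5 and 5 Mb the order turned, with 84.7 and 150.0 per Mb on the left against 38.7 and 99.3 on the right. From 5 to 6.5 Mb the averages were 45.3 and 76.7 on the left and 47.3 and 83.3 on the right, over bins that went opposite ways. Between 5 and 5.5 Mb the left arm was the lower (30.0 and 80.0 against 78.0 and 112.0 per Mb), and between 6 and 6.5 Mb the higher (78.0 and 104.0 against 46.0 and 94.0). In 500 kb bins of equal distance from the end, the left arm was the lower in 7 of 13 bins and the higher in 6 of 13, each time in both replicates. These windows were read from the profile itself and carry no test.

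**Figure D2:**
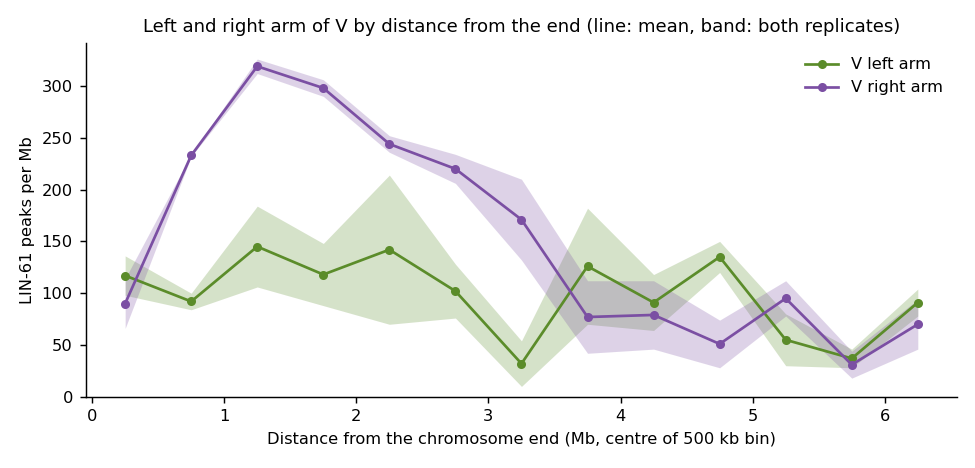
LIN-61 peaks per Mb (vertical axis) in 500 kb bins against distance from the chromosome end in Mb (horizontal axis), for the left (green) and right (purple) arm of V. Lines are the mean of the replicates and bands span replicate 1 to replicate 2. The right arm lies above the left between 0.5 and 3.5 Mb and below it from 3.5 to 5 Mb, and beyond 5 Mb the order changes from bin to bin.

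Along the left arm itself, peaks thinned only slightly from the outer to the inner 50% of its length. The outer 50% held 266 peaks in replicate 1 against 205 in the inner 50%, and 482 against 367 in replicate 2, a 1.31 ± 0.01-fold difference in density (SD, n = 2). The whole-series list gave 506 against 407 members, or 1.24-fold. With the arm cut into 3 equal parts, the outermost exceeded the innermost 2.08 ± 0.11-fold (SD, n = 2). The exact two-sided permutation test on the counts of the outer and inner 50% gave p = 0.667. The median member lay at 2.68 Mb, and the medians of replicates 1 and 2 at 2.65 and 2.66 Mb.

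The decline was not smooth: the 14 bins of 500 kb differed several-fold. The fullest bin by members ran from 1000001 to 1500000 and held 101 members, 53 replicate 1 peaks and 92 replicate 2 peaks. The emptiest, from 5500001 to 6000000, held 25 members, with 14 and 23 replicate peaks. Another low point lay near the middle of the arm, from 3000001 to 3500000, where replicate 1 had 5 peaks, replicate 2 had 27 and the members numbered 28. It was followed at 3500001 to 4000000 by a dense bin of 94 members (35 and 91 replicate peaks). Replicate 2 had more peaks than replicate 1 in 14 of 14 bins, by 1.19-fold at the least and 5.40-fold at the most. Across the 14 bins the replicate counts had a Spearman's rho of 0.670 and a Pearson's r of 0.725, and across the 70 bins of 100 kb a rho of 0.830 and an r of 0.854. Neighbouring bins share the same 2 libraries, so these are descriptions without a p.

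In 100 kb bins the members were unevenly spread, with a median of 10 per bin. The 14 fullest of the 70 bins held 442 members, or 48.4% of them, whereas 22 bins with at most 5 members held 67. The bin with the most members ran from 2600001 to 2700000, with 51 members, 32 replicate 1 peaks and 45 replicate 2 peaks. Members covered 26.4% of it. Next came 4500001 to 4600000 with 46 members (36 and 42 replicate peaks), 900001 to 1000000 with 40 (31 and 29) and 1800001 to 1900000 with 37 (27 and 42). Of the 14 fullest bins of replicate 1, 10 were also among the 14 fullest of replicate 2. One crowded bin was nearly absent from replicate 1: 3500001 to 3600000 held 24 members and 24 replicate 2 peaks, but 2 replicate 1 peaks. The terminal 100 kb held 20 members, 23 replicate 1 peaks and 27 replicate 2 peaks. The first member, at 1 to 342, touched the first base of the chromosome, scored 26.8 and was overlapped in both replicates.

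**Figure D3:**
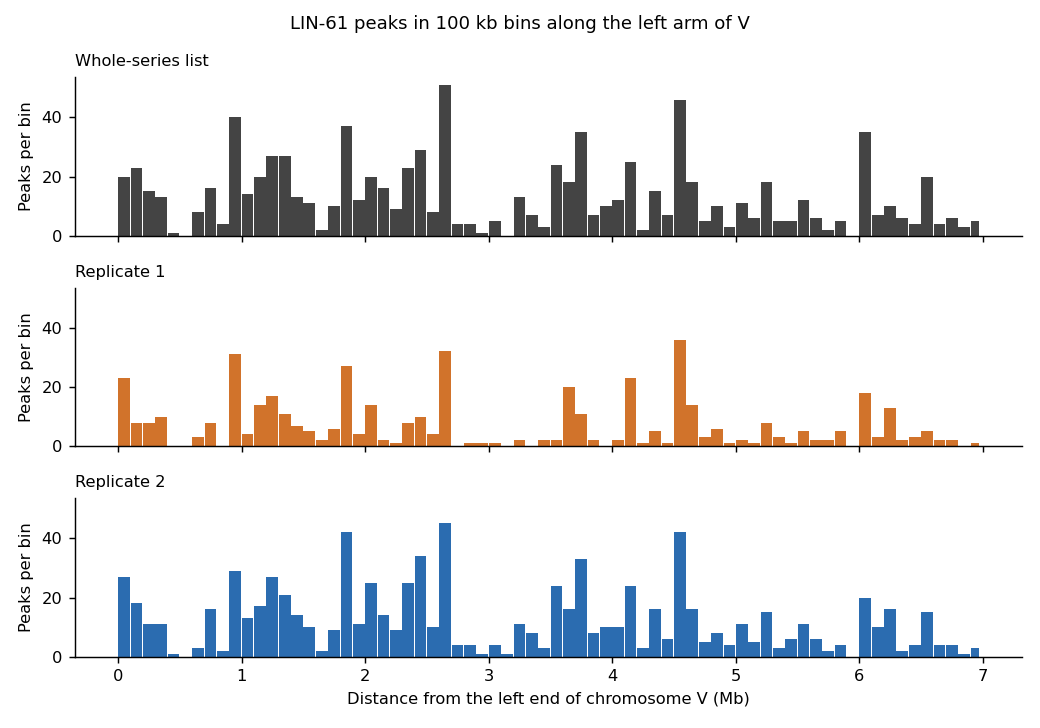
Number of LIN-61 peaks per 100 kb bin (vertical axis) against distance from the left end of chromosome V in Mb (horizontal axis), in the whole-series list and in each replicate. The tallest bins, near 2.6 and 4.5 Mb, reach 51 and 46 members and stand out in all 3 lists, and 3 of 70 bins hold no member.

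The longest peak-free intervals were shared between the lists only in part. The 3 longest gaps between members were 156.7 kb (5844655 to 6001351), 127.4 kb (483277 to 610646) and 104.2 kb (3099344 to 3203562). The gap at 483277 held no peak of either replicate. The gap at 5844655 held 1 peak of each replicate that reached into it, and 156.5 kb of it, from 5844751 to 6001266, were free of peaks in all 3 lists. The gap at 3099344 held 1 replicate 2 peak. The longest gap of replicate 1, 231.3 kb from 379374 to 610687, was met by 2 replicate 2 peaks and 3 members. These counts include peaks that only reach in across an edge, and among the members only that at 482990 to 483276 lay wholly inside. The second, 207.1 kb from 3227547 to 3434679, was met by 13 replicate 2 peaks and 12 members. Of these, the members at 3227442 to 3227591 and at 3434539 to 3441216 crossed its edges. Gaps over 50 kb numbered 47 in replicate 1, 35 in replicate 2 and 30 among the members.

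Most peaks nevertheless lay close to another one. The median gap between neighbours was 1362.5 bp in replicate 1, 1353.5 bp in replicate 2 and 1241.0 bp among the members, so the median spacing differed little although replicate 2 had many more peaks. The upper end differed more: the longest 10% of gaps began at 49559 bp in replicate 1 and 22780 bp in replicate 2. A neighbour within 5 kb was present for 85.1% of replicate 1 peaks, 89.9% of replicate 2 peaks and 89.8% of members (820 of 913). The share of all 14662 peaks was 90.3%. Among the 10 autosome arms the left arm of V ranked 9th by this share in all 3 lists, and the median of the other 9 was 92.5% in replicate 1, 93.7% in replicate 2 and 95.1% in the whole-series list. On the right arm of V the shares were 92.5% and 90.1% in the replicates, and in the centre of V 73.8% and 80.4%. Among the members, 302 gaps, or 33.1%, were shorter than 500 bp.

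Dense stretches, runs of peaks with less than 5 kb between neighbours, had a median length below 5 kb in each replicate. Runs and shared stretches were not computed for other sections, so whether the arm differs in them is not known. Replicate 1 formed 79 runs with a median length of 4.44 kb, and replicate 2 formed 138 with a median of 4.64 kb. Where runs of both replicates coincided, 68 shared stretches resulted, which spanned 438.9 kb or 6.29% of the arm and were met by 320 members (35.0%). Their median length was 4.56 kb, 16 reached 10 kb, and 1 reached 20 kb. A shared stretch is the overlap of a run of each replicate, and no least number of peaks was required in it. The shortest, 0.229 kb from 6351108 to 6351336, held 1 peak of each replicate. Of the 68, 39 began in the outer 50% of the arm and 29 in the inner.

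The longest shared stretch ran for 28.2 kb from 971137 to 999339. It held 18 replicate 1 peaks and 14 replicate 2 peaks, covering 28.0% and 37.6% of it, and 21 members, 8 of them overlapped in both replicates. The second, 18.8 kb from 2054576 to 2073376, held 12 and 16 replicate peaks and 12 members. The third and the sixth, 17.5 kb from 4516344 to 4533858 and 14.8 kb from 4567629 to 4582412, fell within a single run of members of 83.1 kb from 4505535 to 4588613, the longest run of the whole-series list on the arm. The fourth, 17.1 kb from 2681013 to 2698127, held 10 peaks of each replicate and 15 members, at the inner edge of the fullest 100 kb bin. It ended where replicate 1 showed its third-longest gap, of 192.7 kb. The fifth, 16.5 kb from 1875672 to 1892146, held 14 and 17 replicate peaks, and members covered 59.4% of it. In a shorter stretch of 13.2 kb from 1145816 to 1159049, peaks covered 70.8% in replicate 1 and 74.9% in replicate 2, and 7 of its 7 members were overlapped in both replicates.

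Peaks on the left arm were narrow for an autosome arm. The median width was 258.0 bp in replicate 1, 283.0 bp in replicate 2 and 306.0 bp among the members, where 50% of widths lay between 205.0 and 555.0 bp. The right arm of V had medians of 281.0 and 308.0 bp in the replicates, a difference of -24.0 ± 1.4 bp for the left arm (SD, n = 2). The left arm was the narrower in both libraries, by 23 and 25 bp, but the medians of the arms overlapped across libraries, and the exact two-sided permutation test, which does not pair them, gave p = 0.667. After merging of peaks that lay less than 500 bp apart the difference was -107.5 bp (exact permutation p = 0.333). Among the higher-scoring 50% of peaks it was -50.5 bp. In the whole-series list the left arm of V had the lowest median width of the 10 autosome arms, against a median of 348.0 bp for the other 9. It was lowest in replicate 2 as well, and in replicate 1 the left arm of I was 1 bp narrower. The centre of V had still lower medians, 232.0 and 282.0 bp in the replicates and 297.5 bp in the whole-series list.

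Broad members were few: 92 members, or 10.1%, spanned 1 kb or more, against 14.2% of the whole list. They made up 36.8% of the bases in members. The 26 members of 2 kb or more made up 18.4%, and 24 of those 26 were overlapped in both replicates. The share supported among peaks of that width over the whole series was not computed. The widest member, 6678 bp from 3434539 to 3441216, scored 86.9 and lay in the sparse bin at 3000001, with 57943 bp free of members on its left and 13454 bp on its right. A single peak covered nearly the whole member in each library, 97.2% in replicate 1 and 100.0% in replicate 2. The second widest, 4832 bp from 6220793 to 6225624, scored 28.1. It was broken into 8 peaks in replicate 1, which covered 54.5% of the member, and into 2 in replicate 2.

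High scores were scarce on the left arm. The score is the authors' own value for each peak, its meaning is not stated, and it serves here for ranking inside a list. Among the top 500 peaks of the series by score, 16 (3.20%) lay on the left arm of V, which held 6.23% of all peaks and 6.96% of the sequence. Among the top 1000 it held 27. Ranked within the replicate lists, the median peak of the left arm was at percentile 40.2 (replicate 1) and 45.1 (replicate 2), while that of the right arm of V was at 55.6 and 53.8. That of the centre of V was lower than on the left arm, at 37.8 and 35.4. In replicate 1 the left arm of V had the lowest median percentile of the 10 autosome arms, and in replicate 2 it was level with the right arm of IV at the bottom. Across the 913 members, width and score had a Spearman's rho of 0.643, a description over peaks that share the same libraries.

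**Figure D4:**
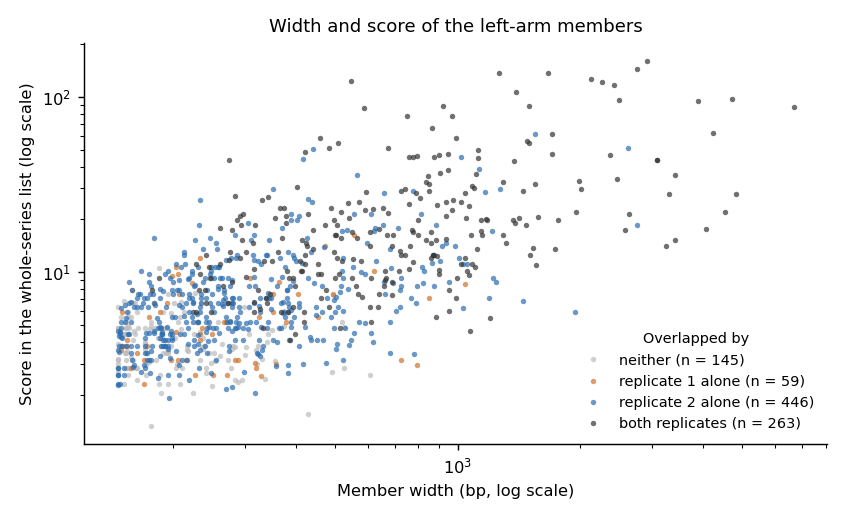
Score in the whole-series list (vertical axis, log scale) against width in bp (horizontal axis, log scale) of the 913 left-arm members, coloured by the replicate lists that overlap them. Members found in both replicates (black) fill the wide, high-scoring part, and those found in neither (grey) reach a score of 10.5 at most.

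Of the 10 highest-scoring members overlapped in both replicates, 7 lay in the inner 50% of the arm, which held 110 of all 263 such members. A stretch of dense peaks shared by both replicates held 6 of the 10. The 10 were picked for overlap in both replicates, which favours lying in such a stretch, so that count shows no enrichment. The highest was at 3652912 to 3655828, 2917 bp wide, with a score of 160.0 and rank 42 in the whole series. In replicate 2 a single peak that scored 160.4, rank 22 of that list, covered 98.7% of it. In replicate 1 it appeared as 4 peaks of which the best scored 14.5, rank 2259. The sixth, at 3656791 to 3657337, lay 962 bp further right and behaved alike, with rank 66 in replicate 2 and rank 3913 in replicate 1. This pair was thus among the highest-ranked sites of replicate 2 and ranked far lower in replicate 1.

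The second and the ninth member also formed a pair, at 1255962 to 1258713 (score 143.2) and 1254266 to 1255657 (score 105.8), 304 bp apart. Their best replicate 1 peaks ranked 684 and 383, and their best replicate 2 peaks 128 and 289. The third, at 6587576 to 6589240, scored 137.1 and stood alone, with 5533 bp free of members on the left and 21821 bp on the right. The fourth, at 6298913 to 6300174, scored 136.7. The fifth, at 5639710 to 5641829, scored 126.0 and was the one of the first 5 with the closest ranks, 246 in replicate 1 and 267 in replicate 2. It lay in the emptiest 500 kb bin of the arm.

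The seventh and the eighth, at 5008568 to 5010831 (score 120.7) and 3520035 to 3522448 (score 116.2), were bordered on the right by 34121 and 36330 bp without members. The tenth, at 1152202 to 1156901, was the widest of the 10 at 4700 bp and scored 96.5, and lay within the shared stretch from 1145816 to 1159049. Its ranks were 246 in replicate 1 and 344 in replicate 2. Replicate peaks covered 49.3% to 96.7% of the 10 members in replicate 1 and 92.5% to 100.0% in replicate 2. When peaks had to cover 50% of each other, 7 of the 10 were still supported by both lists. The highest-scoring replicate 1 peak of the arm was none of these sites: it lay at 6071888 to 6072890, with rank 179 in its list.

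Replicate support on the left arm rested largely on replicate 2. Of the 913 members, 263 were overlapped by peaks of both replicates, or 28.8% (95% interval 25.9 to 31.9), against 37.2% of the whole list. A further 446, or 48.8% (45.6 to 52.1), were overlapped in replicate 2 alone, against 39.1% of the whole list, where this was also the largest class. Another 59, or 6.46% (4.96 to 8.26), were overlapped in replicate 1 alone, against 9.46% of the whole list. The remaining 145, or 15.9% (13.6 to 18.4), met no peak of either replicate, against 14.3% of the whole list. On the right arm of V, 40.6% (37.8 to 43.3) were overlapped in both replicates and 35.3% (32.7 to 38.0) in replicate 2 alone, and in the centre of V 27.3% (22.9 to 32.0) and 46.9% (41.9 to 52.0). The other 9 autosome arms together gave 40.8% and 36.3%. Support by both replicates on the left arm therefore resembled that of the centre of V more than that of the right arm. When peaks had to cover 50% of each other, 11.8% of the members had support in both. The intervals are exact binomial and allow for counting error alone, as if neighbouring peaks were independent. The differences between these shares were not tested.

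The peak numbers of the replicates differed in the same places. Replicate 2 had 1.80 times as many peaks as replicate 1 on the left arm of V, against 1.35 times over the whole series. On the other 9 autosome arms the ratio ran from 1.07 (left arm of III) to 1.60 (right arm of IV), while the centre of V, at 1.80, was like the left arm, and the arms of X reached 1.88 and 2.16. The part that read depth has in this was not tested. Of the replicate 1 peaks on the left arm, 75.4% (355 of 471, 95% interval 71.2 to 79.2) overlapped a replicate 2 peak, near the 74.7% of the whole list. In the other direction, 35.8% of replicate 2 peaks (304 of 849, 32.6 to 39.1) overlapped a replicate 1 peak, against 47.1% of the whole list. The replicates had 122.6 kb of peak sequence in common, 71.4% of that in replicate 1 and 32.7% of that in replicate 2. Scores of overlapping peaks agreed loosely, with a rank correlation (Spearman's rho) of 0.290 over the 355 peaks of replicate 1 and 0.311 over the 304 of replicate 2.

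Support followed score and width. The score is that of the whole-series list, whose making is not stated, so score and replicate overlap may rest on the same reads. In the highest-scoring 25% of members, 169 of 231 were overlapped in both replicates (73.2%, 95% interval 67.0 to 78.8) and none in neither. In the lowest 25%, 1 of 221 was overlapped in both (0.452%) and 88 in neither (39.8%). Members up to 250 bp wide were overlapped in both replicates in 12 of 354 cases (3.39%), and those over 1000 bp in 74 of 92 (80.4%). Wider peaks meet an overlap of 1 bp more easily. Members found in both had a median width of 687.0 bp and a median score of 16.3, and those found in neither 192.0 bp and 3.80. Over the whole series the medians were 714.0 bp and 20.4 for both, and 187.0 bp and 3.71 for neither. The pattern was thus not particular to the arm. Support by score and width class was not computed for the whole series. The highest-scoring member found in neither, at 2421628 to 2421811, was 184 bp wide and scored 10.5. It lay within 533 bp of other members on both sides.

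**Figure D5:**
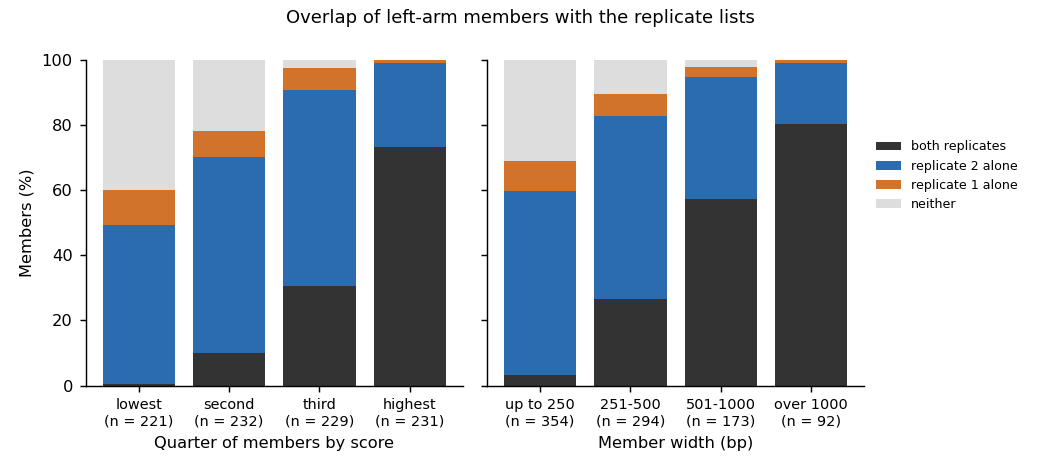
Share of left-arm members in percent (vertical axis) overlapped by both replicates, by replicate 2 alone, by replicate 1 alone or by neither, by score group from lowest to highest (left) and by width (right). The share found in both replicates goes from 0.452% to 73.2% over the score groups and from 3.39% to 80.4% over the width groups.

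Support in both replicates differed little between the outer and inner 50% of the arm, and ranged more widely over its 500 kb bins. The bins held 25 to 101 members each, so their shares carry more counting error, and differences between them were not tested. In the outer 50% of the arm 153 of 506 members were overlapped in both replicates (30.2%, 95% interval 26.3 to 34.4), and in the inner 50% 110 of 407 (27.0%, 22.8 to 31.6), so the intervals overlapped. Over the 14 bins of 500 kb the share ran from 14.3% in the sparse bin at 3000001 (4 of 28) to 39.0% at 4500001 to 5000000 (32 of 82), with a median of 28.0%. The last member inside the boundary lay at 6941884 to 6942955, its midpoint 32297 bp before it, and scored 4.60. The first peak outside lay at 6984630 to 6985702, its midpoint 10450 bp beyond it, and scored 32.5.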

How the data were processed

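LIN-61 ChIP-seq peaks from 2 libraries were analysed. Reads were aligned with BWA to ce10, per the submitters' processing notes, and peaks were called with MACS on WormBase WS220, per the file headers. Tool versions, the calling threshold and the control were not stated there. Per the deposited files, each peak has its first and last base and a score. There is 1 list per library and 1 for the whole series, whose making is not stated. Scores served for ranking inside 1 list. Read depth is unknown.

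Section limits were taken at equal parts of each chromosome, from position 1 to the highest peak end found. Peaks were placed by midpoint. Overlap required 1 bp, and gaps are the bases between neighbouring peaks. Intervals for shares are exact (Clopper-Pearson) at 95%. Arms were compared by exact permutation over replicate values. Interval code was tested on simulated data. Python 3.11.15, numpy 2.4.6, scipy 1.17.1 and pandas 2.3.3 were used.

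Named were the 10 highest-scoring members overlapped in both replicates, the 3 widest, the highest-scoring member found in neither, the extreme bins, the 5 longest shared stretches and the 3 longest gaps. Other bins, stretches and gaps, and the distance windows, were picked after their values were seen. The members and settings were chosen with earlier results of these data known. Alternatives were the higher-scoring 50% (ties kept), merging of peaks less than 500 bp apart, arms as the outer 25%, other distances and overlap rules, each replicate left out, and the whole-series list. Sequences and gene annotation were not used here, for want of a WS220 genome.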

Additional observations from a re-analysis of the deposited data

How the results depend on the processing

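None of 24 alternatives turned the direction of the 4 signed contrasts (density against the right arm and the centre, width against the right arm, outer against inner density). Of 45 alternatives that left out no replicate, 15 stayed within the spread or interval of the reported value and 30 moved beyond it. Leaving out 1 of 2 replicates cannot move a mean beyond their SD and shows nothing on stability. In the higher-scoring 50% of each list, density was 40.2 peaks per Mb, the excess over the centre of V 25.2, the median width 424.75 bp and the width difference to the right arm -50.5 bp. In that subset 74.6% of peaks had a neighbour within 5 kb and 35 stretches were shared. Within it, 68.6% of replicate 1 peaks and 29.7% of replicate 2 peaks were found in the other replicate. With neighbours under 500 bp apart merged, the density difference to the right arm was -32.3 per Mb, the median width 342.5 bp, the width difference -107.5 bp and the share with a neighbour 77.2%. With arms as the outer 25% the width difference was -36.25 bp. The whole-series list gave 74.7 peaks per Mb over the centre, a median width of 306.0 bp, a width difference of -32.0 bp, 6.63% of bases covered and 139 runs. The log2 ratio of outer to inner density, 0.38 as reported, was 0.43 in the higher-scoring 50%, 0.34 after merging, 0.31 in the whole-series list and 1.05 between the outermost and innermost of 3 equal parts. A neighbour lay within 1 kb for 64.0% and within 20 kb for 95.7%. Members supported by both replicates (28.8%) became 11.8% under reciprocal overlap of 50% and 17.7% under the midpoint rule. Replicate 1 peaks found in replicate 2 became 32.1% and 66.5%, and replicate 2 peaks found in replicate 1 17.8% and 26.4%. The direction of several shifts was set by the setting itself. Fewer or merged peaks give a lower density, and a shorter or longer distance a lower or higher neighbour share. A stricter overlap rule can only lower support. The cause of the other shifts was not tested.

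The longest shared stretch also depended on the gap allowed: it was 13.2 kb (1145816 to 1159049) with gaps under 2 kb and 68.5 kb (939392 to 1007932) with gaps under 10 kb. Both sides of each contrast come from the same library, so a paired analysis (replicate block), chosen after seeing the data, took the difference within each library. It gave -53.1 peaks per Mb against the right arm, 52.5 against the centre, -24.0 bp in width and a log2 ratio of 0.38 of outer to inner density, each of one sign in 2 of 2 libraries. The exact two-sided sign-flip permutation p was 0.5 for each, the smallest that 2 pairs allow. The input libraries, which share the replicate numbers, were not analysed here. Assignment of members to genes was not run. Because read depth is unknown, the larger peak number of replicate 2 cannot be told apart from deeper sequencing. The exact permutation test of 2 against 2 has 0.333 as its smallest p.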

Other observations

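The narrowest peak was 146 bp wide in each of the 3 lists, on the left arm of V and over the whole series alike. On the arm, 28 of 471 replicate 1 peaks, 24 of 849 replicate 2 peaks and 16 of 913 members had exactly that width. Over the whole series the counts were 504 of 9958, 261 of 13486 and 230 of 14662. Peaks under 200 bp made up 33.8% of the replicate 1 list on the arm, 28.2% of the replicate 2 list and 23.4% of the members. Their share over the whole series was not computed.

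A member held 2 or more replicate 1 peaks in 71 cases, with up to 8 in a single member, and 2 or more replicate 2 peaks in 83 cases, with up to 5. On the arm, 44 of 471 replicate 1 peaks and 45 of 849 replicate 2 peaks overlapped no peak of the whole-series list. The matching counts over all chromosomes were not taken, so whether the arm differs in this is not known.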
